A study of Mus musculus with 6 samples.

Results

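Collagen crosslinking and chaperone genes were read from RNA-seq of mouse intervertebral discs (IVDs) as 10 of the 43472 gene symbols counted. They comprised the lysyl oxidases Lox, Loxl1, Loxl2, Loxl3 and Loxl4, the lysyl hydroxylases Plod1, Plod2 and Plod3, the transglutaminase Tgm2 and the collagen chaperone Serpinh1. They were chosen by gene symbol for what their products do to collagen. All 10 passed the filter on low counts. The mutant group was Col2Cre;Adgrg6 f/f, in which a Cre under a Col2 promoter removes the adhesion G protein-coupled receptor gene Adgrg6. This Cre acts throughout the IVD and also in periosteum and trabecular bone, so no single disc tissue was isolated by it. The control group consisted of Cre (-) littermates, which the genotype label calls wild type and the sample title Col2Cre control. Both groups were on the C57B6/J strain and were taken at postnatal day 20 (P20). There were 3 libraries per group, each a pool of discs T8 to L5 from 2 to 3 mice, so that values for single mice and for single disc tissues cannot be given. The sex of the mice is not stated in the sources used here.

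Collagen is modified at several steps on its way to the matrix. In the endoplasmic reticulum, lysyl hydroxylases add hydroxyl groups to lysines of the new chains, and the chaperone HSP47, encoded by Serpinh1, binds the folded triple helix and keeps it from aggregating. After secretion and removal of the propeptides, the copper enzymes of the lysyl oxidase family oxidise lysines and hydroxylysines of collagen and elastin, and the aldehydes formed then react into crosslinks. Transglutaminase 2 joins glutamines to lysines in many matrix proteins. In discs and cartilage these crosslinks hold the fibrils of the annulus fibrosus and the endplate together under load.

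The lysyl oxidases share a catalytic domain, and the stretch that codes for its copper-binding motif is shown for Loxl1, Loxl2, Loxl3 and Loxl4. That of Lox is not shown here. The stretch was found by translating the coding transcript with the longest reading frame of each gene in GENCODE M21 (build GRCm38). The translation was searched for the residue pattern WxWHxCHxHYH, where x is any residue. Most of the shared bases are therefore fixed by the pattern and do not measure how alike the genes are. The stretch is 33 bases long and split by an intron in each gene. Capitals mark the 20 bases that are the same in the sequences below, which are written 5′ to 3′ on the coding strand without the intron. The Loxl1 stretch lies in exons 3 and 4 within chr9:58293720-58294381 on the minus strand, that of Loxl2 in exons 10 and 11 within chr14:69682316-69689037 on the plus strand, that of Loxl3 in exons 10 and 11 within chr6:83049995-83050125 on the plus strand, and that of Loxl4 in exons 11 and 12 within chr19:42598807-42599899 on the minus strand.
Loxl1: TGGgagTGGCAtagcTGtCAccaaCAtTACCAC
Loxl2: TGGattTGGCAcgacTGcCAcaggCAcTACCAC
Loxl3: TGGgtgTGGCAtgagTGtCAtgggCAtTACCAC
Loxl4: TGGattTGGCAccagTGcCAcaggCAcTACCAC
The bases that differ are spread through the stretch. Over whole transcripts, the longest exact run shared by 2 lysyl oxidases ranged from 11 to 32 bases, with 32 between Lox and Loxl1, and that shared by 2 lysyl hydroxylases from 15 to 24 bases.

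Each library had between 9061491 and 12017008 counts on genes. Adgrg6, listed under its older symbol Gpr126, was at 124, 108 and 94.3 CPM (counts scaled to the library size, corrected by TMM) in the controls, in the order of the replicate numbers used throughout, and at 138, 124 and 106 CPM in the mutants. The difference was 0.17 on the log2 scale (SE 0.18, adjusted p = 0.849, edgeR quasi-likelihood test with Benjamini-Hochberg adjustment). Reads anywhere in the gene were counted and not those of the removed exons alone, so this level does not check the labels. Markers of chondrocytes were abundant in every library, with summed levels of 78883 to 134606 CPM in control and 113213 to 139878 CPM in mutant IVDs, the lowest in control replicate 3. Most of each sum was Col2a1. Without it, the other 7 markers summed to 19117, 22425 and 16175 CPM in control and 15816, 14704 and 15260 CPM in mutant IVDs, all mutants below all controls. Of the nucleus pulposus markers, 7 of 8 could be tested, while Noto stayed under 1 CPM in all libraries. Control replicate 1 stood apart by skeletal muscle, whose 8 markers summed to 3929 CPM there against 72.4 to 168 CPM in the other 5 libraries.

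To ask whether the enzymes and the chaperone differ between mutant and control discs, the 3 libraries of each group were compared with edgeR over 16152 genes. Of the 10 genes, 3 had an unadjusted p under 0.05, all of them lysyl oxidases that were higher in mutant IVDs, where 2.89% of all genes tested were higher at that threshold and 7.21% differed in either direction. They were Lox (log2 fold change 0.75), Loxl1 (0.99) and Loxl2 (0.60). At an adjusted p under 0.05, none of the 10 was called by edgeR, where 0.00619% of all genes were, nor by limma-voom or DESeq2. Each of these tools called 3 of the 10 at an unadjusted p under 0.05, where DESeq2 called 7.60% and limma-voom 5.78% of all genes. Without the filter on low counts, 1 of them, Loxl1, passed in edgeR at an adjusted p of 0.0116, where 0.927% of all genes passed. The median log2 fold change was 0.21 over the 10 genes and -0.01 over all genes, and 7 of the 10 were above 0. In a bulk sample, more cells of a type and more RNA per cell cannot be told apart.

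**Figure D1:**
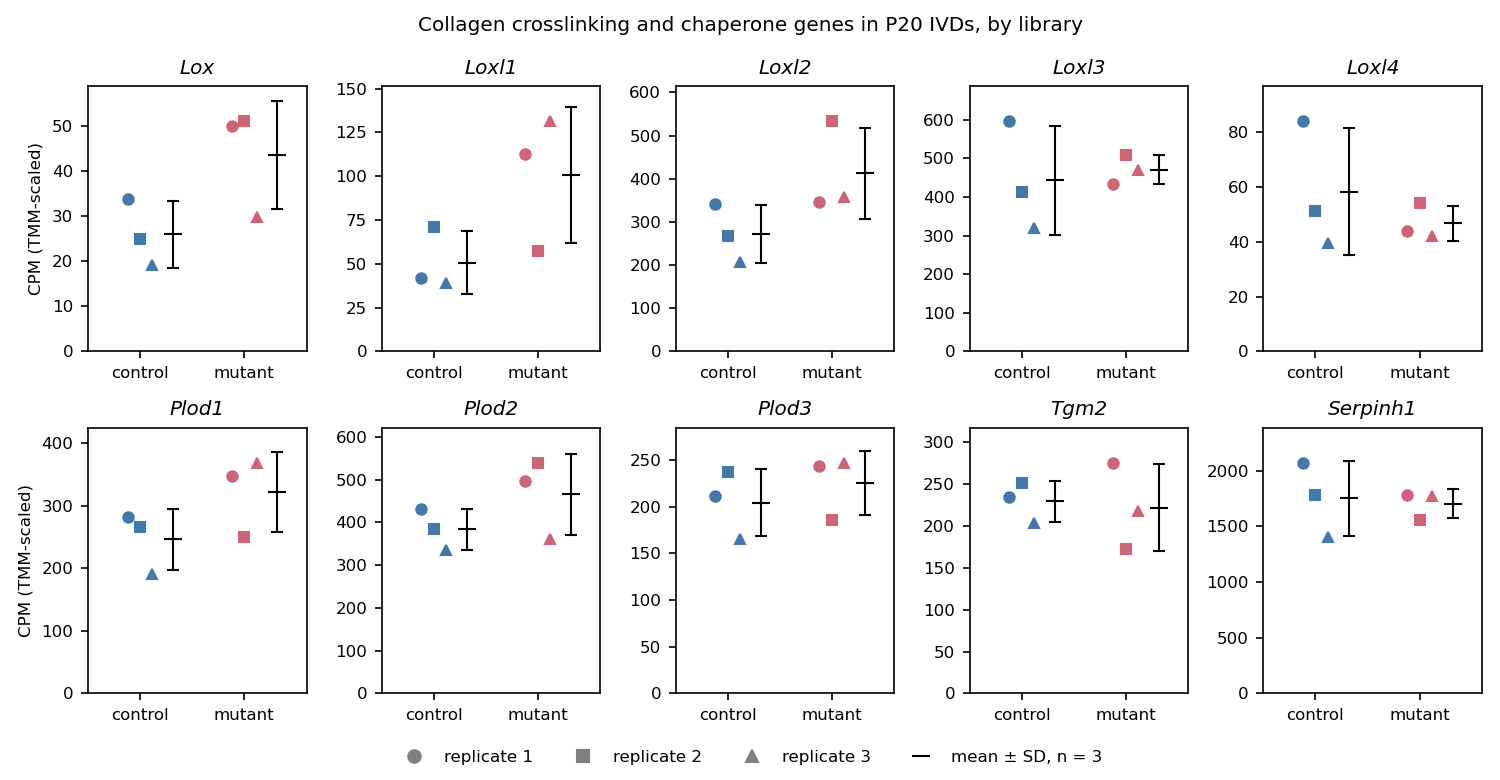
Level of each of the 10 genes in every library, in CPM scaled by TMM, on axes that start at 0. Points are single libraries, with the shape giving the replicate number, and the black bar is the mean ± SD of 3 libraries. Loxl2 is the only one of the 10 whose mutant libraries all lie above all controls, and control replicate 3 is the lowest library for 9 of the 10 genes.

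Lox (chr18:52516067-52529867, minus strand) encodes lysyl oxidase itself, which crosslinks fibrous collagens and elastin. It was measured at 33.8, 24.9 and 19.2 CPM in control and at 50.0, 51.2 and 29.7 CPM in mutant IVDs. Mutant replicates 1 and 2 lay above every control, and mutant replicate 3 lay between the controls. The means were 26.0 ± 7.36 and 43.7 ± 12.1 CPM (SD, n = 3 each), a 1.68-fold difference. The unadjusted p from edgeR was 0.0162 (SE 0.26, adjusted p = 0.676). It was 0.0645 without control replicate 3 and 0.0555 without mutant replicate 2, with log2 fold changes of 0.58 and 0.63.

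Loxl1 (chr9:58287738-58313186, minus strand) encodes the lysyl oxidase known for its part in elastic fibre assembly. Its levels were 41.6, 71.2 and 39.2 CPM in control and 112.9, 57.2 and 131.7 CPM in mutant IVDs. Mutant replicates 1 and 3 were above every control, whereas mutant replicate 2 was below control replicate 2, so the groups overlapped. The mean was 50.7 ± 17.8 CPM in control and 100.6 ± 38.8 CPM in mutant IVDs, a 1.99-fold difference. This was the widest difference among the 10 genes (SE 0.32, adjusted p = 0.676, edgeR), with an unadjusted p of 0.0118. Without mutant replicate 3 the log2 fold change was 0.75 and the p 0.0574.

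Loxl2 (chr14:69609068-69695834, plus strand) encodes a lysyl oxidase with scavenger receptor domains that also acts on basement membrane collagen IV. Its levels were 341, 267 and 208 CPM in control and 346, 535 and 358 CPM in mutant IVDs. Every mutant library lay above every control, where 5.45% of all genes tested did so, but mutant replicate 1 exceeded control replicate 1 by only a narrow margin and mutant replicate 2 lay far above the rest. The means were 272 ± 66.8 and 413 ± 106 CPM (SD, n = 3 each), a 1.52-fold difference. The unadjusted p of 0.0366 (SE 0.25, adjusted p = 0.677, edgeR) became 0.0628 when libraries were scaled by their totals alone. Leaving out control replicate 2 gave 0.0846, control replicate 3 gave 0.130 and mutant replicate 2 gave 0.157. Without mutant replicate 2 the log2 fold change was 0.39.

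The other two lysyl oxidases did not pass the test. Loxl3 (chr6:83034173-83052562, plus strand), which is known for roles in cartilage and palate development, was at 598, 413 and 321 CPM in control and 433, 508 and 471 CPM in mutant IVDs. The controls spanned the mutant values, and the log2 fold change was 0.09 (SE 0.25, adjusted p = 0.951, edgeR). Loxl4 (chr19:42593982-42612813, minus strand) was at 84.2, 51.3 and 39.4 CPM in control and 44.0, 54.1 and 42.3 CPM in mutant IVDs. It was the only lysyl oxidase with a lower mean in mutant IVDs (log2 fold change -0.31, SE 0.26, adjusted p = 0.810, edgeR), and its high control value came from control replicate 1, without which the log2 fold change was 0.069.

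The makeup of the family was also set out per library, as a share of its summed level per exonic length. Loxl3 made up 55.8%, 50.4% and 52.2% of the family in control IVDs, against 44.1%, 44.1% and 45.5% in mutant IVDs. The mutant shares of Loxl3 lay below all control shares, although its own level did not pass the test. Loxl2 took 27.1% to 28.9% in control and 29.5% to 39.5% in mutant IVDs, which again did not overlap. Loxl4 took 6.84% to 8.59% in control and 4.46% to 5.13% in mutant IVDs, also without overlap. Against the same family sum, 15.8% of all other genes had all mutants below all controls and 0.576% above. The shares add up to the whole family, so a lower share of one gene mirrors higher shares of others. Loxl1 ranged from 5.42% to 12.1% in control and from 6.93% to 17.8% in mutant IVDs, and Lox from 2.92% to 3.04% and from 2.77% to 4.90%, with overlap for both. These shares need no scaling between libraries and were looked at after the levels, so they are a description without a test. The ratio of Loxl2 to Loxl3 counts gives the same order, at 0.571, 0.646 and 0.649 in control and 0.800, 1.05 and 0.760 in mutant IVDs. It was 1 of 6 pairs of these genes looked at, chosen after the levels had been seen. Lox to Loxl3 and Plod1 to Plod3 also had all mutants above all controls, where 1.73% of all genes did so against Loxl3 and 2.12% against Plod3, whereas Loxl1 to Loxl3, Loxl1 to Loxl2 and Plod2 to Plod3 overlapped.

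Among the lysyl hydroxylases, none passed the test and all had a log2 fold change above 0. Plod1 (chr4:147909753-147936767, minus strand), which hydroxylates lysines within the triple helix, was at 282, 267 and 191 CPM in control and 348, 250 and 369 CPM in mutant IVDs. Mutant replicates 1 and 3 were above all controls and mutant replicate 2 was between them (log2 fold change 0.39, SE 0.23, adjusted p = 0.746, edgeR). Without mutant replicate 2, the p of Plod1 fell under the threshold, at 0.0410 with a log2 fold change of 0.56. Without control replicate 3 its log2 fold change was 0.24 and the edgeR p 0.328. Plod2 (chr9:92542223-92608428, plus strand), which hydroxylates lysines of the telopeptides outside the helix, was at 430, 385 and 335 CPM in control and 496, 539 and 360 CPM in mutant IVDs. Here mutant replicates 1 and 2 were the high ones and mutant replicate 3 lay within the controls (0.28, SE 0.22, adjusted p = 0.802). Plod3 (chr5:136987019-136996648, plus strand), which also adds glucose to hydroxylysine-linked galactose, was at 211, 237 and 166 CPM in control and 243, 185 and 247 CPM in mutant IVDs, with overlap and a log2 fold change of 0.14 (SE 0.21, adjusted p = 0.902).

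Mutant replicate 1 was above all controls for both Plod1 and Plod2, whereas mutant replicate 2 was high for Plod2 alone and mutant replicate 3 for Plod1 alone. The log2 ratio of Plod2 to Plod1 counts was 0.61, 0.53 and 0.81 in control IVDs. It was 0.51, 1.11 and -0.04 in mutant IVDs, which spread over a far wider range than the controls. The means were 0.65 ± 0.15 and 0.53 ± 0.57 (SD, n = 3 each), a difference of -0.12 with p = 0.7 in a two-sided exact permutation test. With 3 libraries against 3 this test cannot give a p below 0.1. The difference changed sign to 0.16 without mutant replicate 3 and was -0.41 without mutant replicate 2.

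Tgm2 (chr2:158116402-158146436, minus strand), the transglutaminase, was at 235, 251 and 203 CPM in control and 276, 172 and 218 CPM in mutant IVDs. The highest and the lowest of the 6 libraries were both mutant, and the log2 fold change was -0.05 (SE 0.21, adjusted p = 0.970, edgeR). Serpinh1 (chr7:99345376-99353239, minus strand) was at 2072, 1778 and 1404 CPM in control and 1782, 1553 and 1775 CPM in mutant IVDs. All 3 mutant values fell between the lowest and the highest control, with a log2 fold change of -0.04 (SE 0.24, adjusted p = 0.978). None of the 10 genes had all mutant libraries below all controls, where 5.96% of all genes did.

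**Figure D2:**
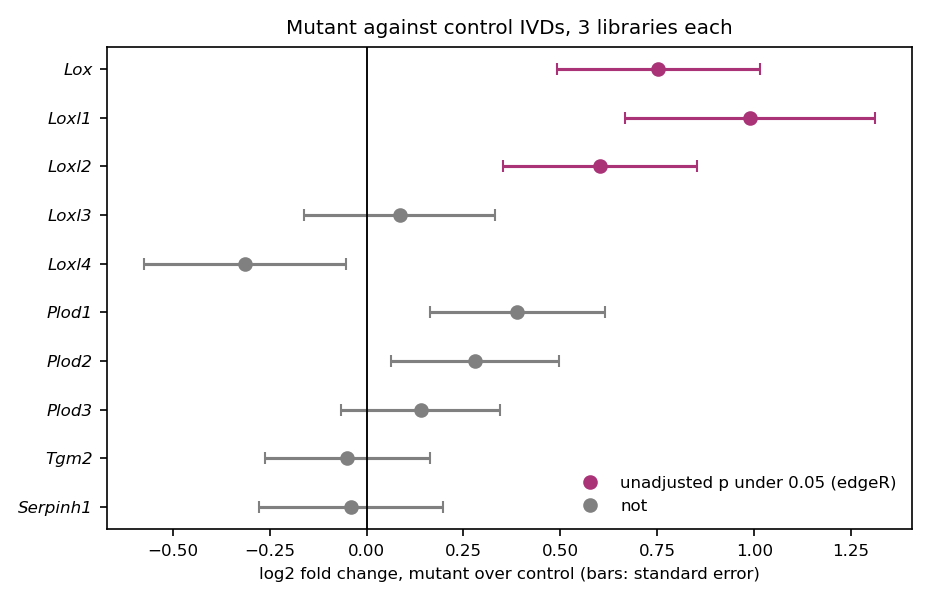
Log2 fold change of mutant over control IVDs for the 10 genes, with the standard error from edgeR as a bar on each side. Coloured points had an unadjusted p under 0.05. Loxl1, Lox and Loxl2 are at 0.99, 0.75 and 0.60, and Loxl4 is the lowest at -0.31.

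The chaperone was then set against its clients, which was asked as a ratio within each library. The log2 ratio of Serpinh1 counts to those of Col1a1, Col1a2, Col3a1 and Col2a1 together was -6.01, -6.17 and -5.68 in control and -6.36, -6.48 and -6.45 in mutant IVDs. Every mutant library lay below every control, as was the case for 18.2% of all genes set against the same collagens. Serpinh1 itself had a log2 fold change of -0.04. Most of the denominator was Col2a1, at means of 94670 CPM in control and 113942 CPM in mutant IVDs, which did not pass the test and was lowest in control replicate 3, the control with the highest ratio. The means of -5.95 ± 0.25 and -6.43 ± 0.06 (SD, n = 3 each) differed by -0.48. The two-sided exact permutation test gave p = 0.1, the smallest it can give here, and an adjusted p of 0.3 over the 3 ratios tested. With Col1a1, Col1a2 and Col3a1 as the only clients the difference was -1.07, on a scale where 32.8% of all genes had all mutants below all controls. The log2 ratio of Lox to Col1a1, Col1a2 and Col3a1 was -9.47, -9.35 and -8.92 in control and -8.78, -9.61 and -10.25 in mutant IVDs. Mutant replicate 1 was the highest and mutant replicate 3 the lowest of the 6, so the groups overlapped, and the difference was -0.30 (exact permutation p = 0.6). This difference changed sign to 0.054 without mutant replicate 3 and was -0.68 without mutant replicate 1.

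**Figure D3:**
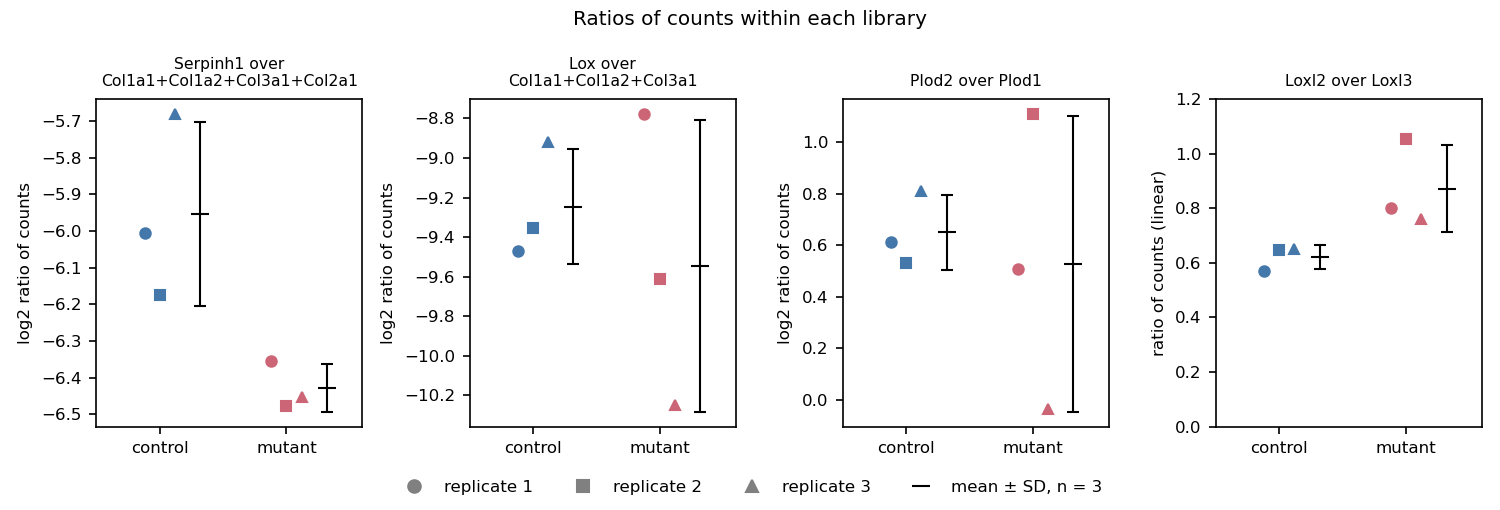
Ratios of counts within each library for Serpinh1 over collagens I, III and II, Lox over collagens I and III, Plod2 over Plod1 (log2 scale, axes not starting at 0) and Loxl2 over Loxl3 (linear scale from 0). Points are libraries and black bars the mean ± SD of 3. The Serpinh1 ratio is below all controls in every mutant library and the Loxl2 to Loxl3 ratio above them, whereas the other two overlap.

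When each of the other 9 genes was expressed per 1000 Serpinh1 counts of the same library, 3 had mutant values above all controls, against 6.70% of all genes. Lox was at 16.3, 14.0 and 13.7 in control and 28.0, 33.0 and 16.8 in mutant IVDs per 1000 Serpinh1 counts. Loxl2 was at 165, 150 and 148 in control and 194, 344 and 202 in mutant IVDs. Plod1 was at 136, 150 and 136 in control and 196, 161 and 208 in mutant IVDs. Loxl1, Loxl3, Loxl4, Plod2, Plod3 and Tgm2 overlapped on this scale, and none lay below all controls, against 2.82% of all genes. This view was chosen after the levels had been seen and has no test.

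Levels of different genes were compared only as CPM per kb of annotated exon. Serpinh1 was highest by far, at 717 ± 137 in control and 697 ± 53.3 in mutant IVDs (SD, n = 3 each). In control IVDs it stood at 7.43 times the next gene, Loxl3, at 96.4 ± 30.7 CPM per kb. Plod2 (71.1), Loxl2 (50.3), Tgm2 (49.8), Plod3 (45.3) and Plod1 (36.4) followed, and no neighbours from Loxl3 to Plod1 were apart beyond their range over libraries. Loxl1 (15.4) and Loxl4 (13.8) were next, below Plod1 in every library and overlapping each other, and Lox was lowest at 5.44 ± 1.54 CPM per kb, apart from Loxl4. Lox thus was the least abundant transcript of the 10 in control discs, while its relatives Loxl3 and Loxl2 were abundant. In mutant IVDs the order of the means differed in only 1 place, with Plod3 (49.9) ahead of Tgm2 (48.2). Loxl2 at 76.4 ± 19.5 was there apart from the next gene, and Loxl1 at 30.5 ± 11.8 apart from Loxl4 at 11.1 ± 1.51, whereas Loxl4 and Lox, at 9.14 ± 2.52, overlapped. Exonic length covers all annotated transcripts of a gene, which sets the levels of genes with retained introns too low.

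**Figure D4:**
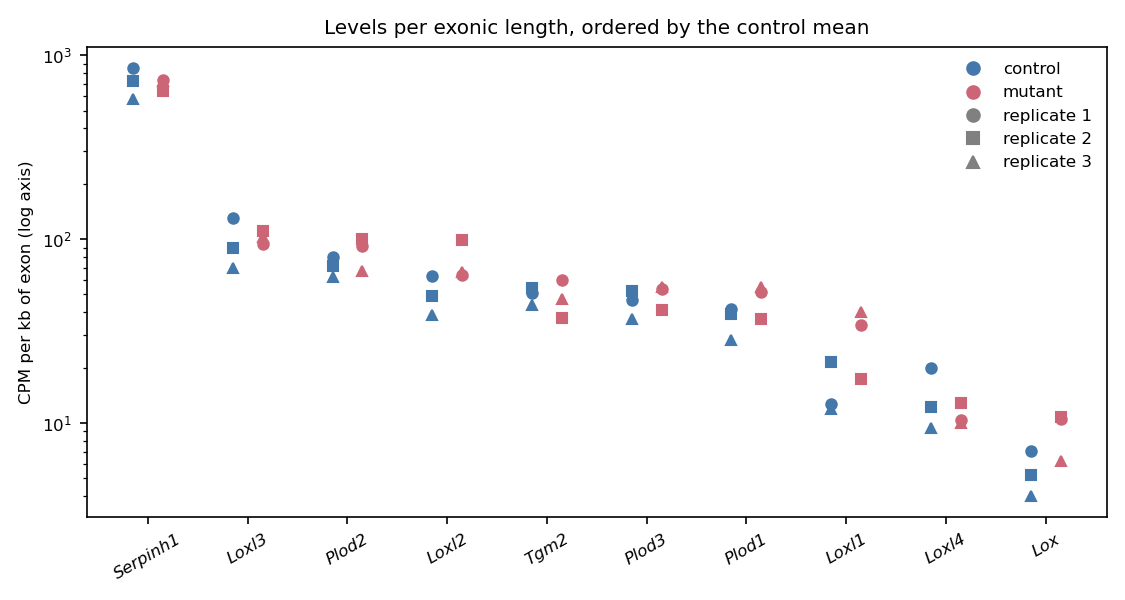
Level of each gene as CPM per kb of annotated exon on a log axis, in order of the control mean. Points are single libraries, with controls on the left and mutants on the right of each gene. Serpinh1 lies far above the rest in all 6 libraries. Lox has the lowest mean in both groups and overlaps Loxl4 in the mutants.

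Libraries differed in ways that touch these genes. Control replicate 3 was the lowest library for Lox, Loxl1, Loxl2, Loxl3, Loxl4, Plod1, Plod2, Plod3 and Serpinh1, and mutant replicate 2 for Tgm2. In control replicate 3 the nucleus pulposus markers summed to 4960 CPM, against 3594 and 2397 CPM in the other controls. In mutant IVDs they summed to 3130 to 5823 CPM. Of the 7 tested, 4 had a log2 fold change above 0 and none had an unadjusted p under 0.05. Control replicate 3 also had the highest TMM factor, 1.149, and the lowest level of Col2a1, the main cartilage collagen, at 62708 CPM against 98509 to 124063 CPM elsewhere. Without it, 1 of the 10 genes, Loxl1, had an unadjusted p under 0.05, against 3.77% of all genes in either direction, and the median log2 fold change of the 10 genes was 0.11. Without control replicate 1, the library with muscle transcripts, the number was 3, against 14.1% of all genes, and that median was 0.39.

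Markers of several other cell types were set beside the lysyl oxidases. Over all genes tested, 2.89% were higher and 4.32% lower in mutant IVDs at an unadjusted p under 0.05 in edgeR. Of all 16152 genes, 7818 had a log2 fold change above 0 and 8334 below 0. The 8 fibroblast markers summed to 2961, 3185 and 2515 CPM in control and 3621, 6020 and 5949 CPM in mutant IVDs. These sums did not overlap. Most of each was Col3a1, and without it the sums overlapped, at 918 to 1231 CPM in control and 869 to 1631 CPM in mutant IVDs. Of the 8 markers, 7 had a log2 fold change above 0, of which Dpt and Col3a1 passed the test at an unadjusted p under 0.05. Of the 8 tendon and outer annulus markers, 6 were above 0, of which 3 (Tnmd, Thbs4 and Tnc) were higher at that threshold. Col12a1 and Mkx were below 0. The sums overlapped, at 3190 to 4579 CPM in control and 4165 to 5774 CPM in mutant IVDs, and most of each was Fmod, which did not pass. Of the 8 osteoblast markers, Bglap and Bglap2 were higher and Phex lower, and the sums overlapped at 1494 to 1882 and 1659 to 1972 CPM. None of the 8 endothelial markers passed, with sums of 153 to 295 and 240 to 267 CPM. Of the 7 red blood cell markers tested, all had a log2 fold change above 0 and Slc4a1 passed, with overlapping sums of 39.6 to 343 CPM in control and 213 to 450 CPM in mutant IVDs. Of the 8 macrophage markers, 7 were above 0 and Cd68 passed, with overlapping sums of 67.1 to 93.4 and 78.1 to 159 CPM. Of the 8 chondrocyte markers, 6 were below 0, while Col2a1 and Sox9 were above 0. Sox9 was at 562, 574 and 398 CPM in control and 660, 469 and 528 CPM in mutant IVDs. Only Matn3 passed, at 689, 475 and 412 CPM in control and 408, 286 and 222 CPM in mutant IVDs. All 8 skeletal muscle markers were below 0 and 7 passed, where 4.32% of all genes were lower at an unadjusted p under 0.05. Their high values were in control replicate 1. The part of these cells in the levels of Lox, Loxl1 and Loxl2 was not tested.

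The wider pathway of collagen synthesis was read from a list of 51 other genes, of which 45 could be tested. Of these, 10 were higher and 2 lower in mutant IVDs at an unadjusted p under 0.05, against 2.89% higher and 4.32% lower over all genes. In place of these 12 there were 7 without control replicate 2, where 5.59% of all genes passed in either direction. There were 8 when either control replicate 3, mutant replicate 2 or mutant replicate 3 was the one left out, against 3.77%, 9.76% and 5.10% of all genes. At an adjusted p under 0.05, edgeR and limma-voom called none of them, and DESeq2, which called 0.359% of all genes, called 5, namely Col3a1 (adjusted p = 0.00133), Postn (0.00529), Pcolce (0.0127), Col5a2 (0.0210) and Col5a1 (0.0321). In edgeR without the filter on low counts, Postn (adjusted p = 0.000967) and Creb3l1 (0.0245) passed, and without control replicate 1 Postn did (0.0187). The median log2 fold change of the list was 0.16 and 29 of the 45 were above 0. Mia2, Tgm3, Tgm5, Tgm6, Tgm7 and F13b had too few counts to be tested. The older symbol Ctage5, which has a line of its own in the files beside Mia2, was not used here.

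Among 10 substrates, 6 passed, all higher, where 2.89% of all genes tested were higher at an unadjusted p under 0.05. They were Col1a1 (log2 fold change 1.05) and Col3a1 (1.08), which form fibrous tissue, the collagen V chains Col5a1 (0.80), Col5a2 (0.87) and Col5a3 (0.46), which regulate fibril width, and elastin Eln (0.72). Col1a2 was at 0.86 (adjusted p = 0.695, edgeR) and Col2a1 at 0.27 (adjusted p = 0.917). The cartilage collagen XI chains Col11a1 (-0.24) and Col11a2 (-0.27) were the only substrates below 0 and did not pass. Col1a1 was at 12862, 7926 and 3879 CPM in control and 11537, 19450 and 20231 CPM in mutant IVDs, where mutant replicate 1 lay below control replicate 1, so the groups overlapped. Col3a1 was at 2043, 1954 and 1568 CPM in control and 2753, 4389 and 4633 CPM in mutant IVDs, without overlap. Eln was at 1061, 1286 and 871 CPM in control and 1817, 1447 and 2043 CPM in mutant IVDs, also without overlap. With Col5a1, Col5a2 and Col5a3, 5 of the 10 substrates had all mutants above all controls, where 5.45% of all genes tested did so. Of 5 proteins that hold lysyl oxidases or their activators at the fibre, Postn (periostin) was higher, at 93.3, 45.5 and 51.5 CPM in control and 143, 150 and 135 CPM in mutant IVDs (log2 fold change 1.17, SE 0.26, adjusted p = 0.553, edgeR). Fn1 (0.29), Fmod (0.32), Efemp2 (-0.07) and Fbln5 (0.15) did not pass.

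Propeptide removal, which precedes crosslinking, went both ways, where 2.89% of all genes were higher and 4.32% lower at an unadjusted p under 0.05. Of 8 genes, Pcolce, an enhancer of the C-propeptidase, was higher (0.80), as was the N-propeptidase Adamts2 (0.59), whereas the related enhancer Pcolce2 (-0.46) and the N-propeptidase Adamts14 (-0.54) were lower. Pcolce was at 315, 280 and 263 CPM in control and 431, 457 and 606 CPM in mutant IVDs. Pcolce2 was at 455, 510 and 411 CPM in control and 312, 347 and 342 CPM in mutant IVDs, and neither gene's groups overlapped. Of the 8 genes, 1 had all mutants above all controls and 3 (Pcolce2, Adamts3 and Adamts14) had all mutants below. Over all genes tested these shares were 5.45% and 5.96%. Of 12 alternatives, the calls of Pcolce2 and Col5a3 were lost in 7, that of Adamts2 in 6, that of Col1a1 in 4 and those of Adamts14 and Eln in 2, while those of Pcolce, Creb3l1, Col3a1, Col5a1, Col5a2 and Postn were kept in all 12. Without mutant replicate 3, Col5a3 was at 0.24 and Adamts2 at 0.36.

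The steps inside the cell, where Serpinh1 and the lysyl hydroxylases act, were described in the same way, and no difference between steps was tested. None of the 10 genes of proline hydroxylation had a p under 0.05 in edgeR. The cyclophilin Ppib was the lowest of these at -0.33 (adjusted p = 0.743), and P4ha1, a prolyl hydroxylase subunit, the highest at 0.35. Of 9 tested genes of folding, glycosylation and export, 1 passed, where 7.21% of all genes did so in either direction. It was Creb3l1, a membrane-bound transcription factor known to act on collagen genes, at 49.1, 47.3 and 30.3 CPM in control and 83.2, 61.9 and 79.4 CPM in mutant IVDs (log2 fold change 0.83, SE 0.22, adjusted p = 0.627, edgeR). None of 3 other transglutaminases that could be tested passed.

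**Figure D5:**
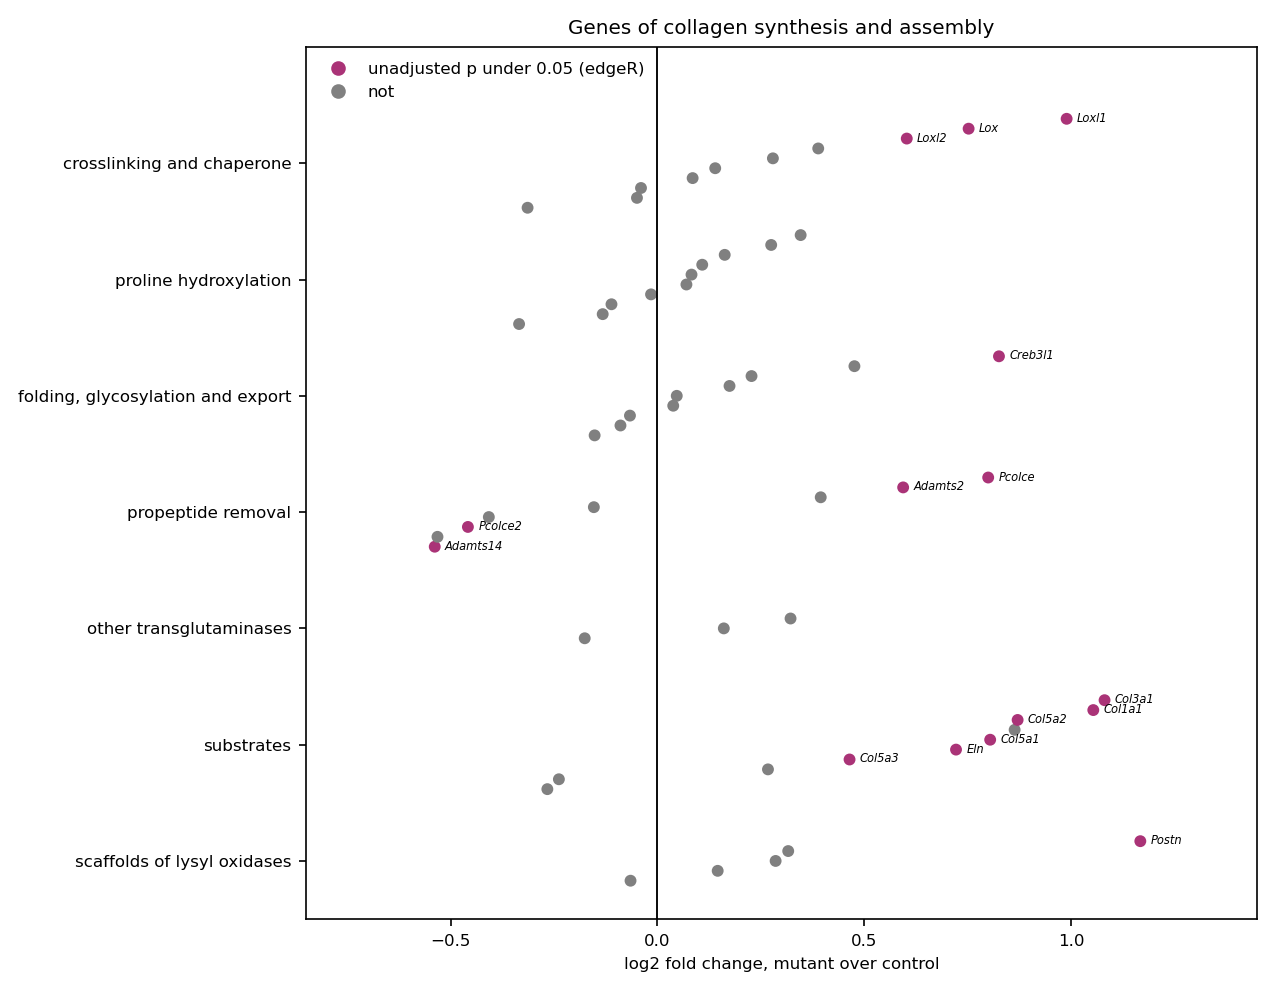
Log2 fold change of mutant over control IVDs for the 10 crosslinking and chaperone genes (top) and 45 other genes of collagen synthesis and assembly, by step. Each point is a gene, coloured and named where the unadjusted p was under 0.05. Over all genes tested, 2.89% were higher and 4.32% lower at that threshold. Coloured are 3 lysyl oxidases, 6 of 10 substrates, 4 of 8 genes of propeptide removal (2 on each side of 0), 1 of 5 scaffolds and 1 of 9 genes of folding, glycosylation and export.

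Genes whose profile over the 6 libraries was closest to those of the 3 genes with the widest range were searched among 9955 genes with a mean of at least 10 CPM, by the root mean square difference of centred log2(CPM + 1). For Loxl1 they were Gm12426 at 0.14, Zfp467 at 0.25 and Gpr153 at 0.26. For Lox they were Slc25a37, Sh3pxd2b and Hmgn2, all within 0.14 when rounded. For Loxl2 they were Mfap3 at 0.06 and 0610010F05Rik and Nfatc2, both at 0.11. Mfap3 was at 22.8, 15.7 and 12.7 CPM in control and 22.9, 33.1 and 23.4 CPM in mutant IVDs, with mutant replicate 2 highest as for Loxl2.

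Some genes on the opposite strand share exonic bases with these genes, and the strand setting of the counting is not given in the sources used here, so reads from both partners may not be told apart there. Loxl3 shares 535 bases with Htra2 (27872 against 7255 counts over the 6 libraries), Plod3 shares 529 with Znhit1 (12966 against 3754) and Tgm2 shares 370 with Rprd1b (13635 against 9835). The partners' log2 fold changes were -0.08, -0.07 and -0.07. Loxl2 shares 301 bases with the antisense gene Gm27177, which had 15 counts against 21222. Tgm2 also shares 633 bases with Gm20412, which had 0 counts. Plod2 shares 346 bases with Gm38391 and Lox 30 bases with AC161119.1, whose counts were not analysed here.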

How the data were processed

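The authors deposited raw counts of reads per gene symbol, 1 file per library, from poly(A) RNA, without normalization. The study's methods name HISAT2 and GRCm38, whereas the submitters' processing notes name STAR 2.5.3a and HTSeq, whose closing lines the files carry. The authors' table of their own comparison (fold changes, p-values, normalized values) was not used. Between 40.4% and 44.2% of reads were on genes, and reads outside genes or not aligned were left out. Precision from counts covers counting error only. The 10 members, the lists and the tests were chosen with earlier results of these data known.

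Counts were normalized by TMM, filtered by filterByExpr (count minimum 10) and tested with edgeR 4.0.16 (quasi-likelihood, Benjamini-Hochberg over 16152 genes) in R 4.3.3, after a test on simulated data. The p-values measure the spread between pools. Alternatives were RLE factors, library totals, no filter, a replicate block, DESeq2 1.42.0, limma-voom (limma 3.58.1) and leaving out each library. Named genes were all members, Adgrg6, pathway genes with an unadjusted p under 0.05, collagens in a ratio, the 3 closest profiles of the 3 most variable members, and overlapping opposite-strand genes. Marker genes with an unadjusted p under 0.05 were named too, except those of muscle. So were Noto and the pathway genes with too few counts to be tested. Ppib, P4ha1, Adamts3, Col11a1, Col11a2, Fn1, Fmod, Efemp2, Fbln5, Sox9, Col12a1 and Mkx were named after their values were seen. Coordinates are from GENCODE M21.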

Additional observations from a re-analysis of the deposited data

How the results depend on the processing

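Of 120 member values under alternatives, 105 kept their direction and side of the threshold, 7 lost the threshold, 1 gained it and 7 changed sign, all 7 in genes that had not passed. Those were Loxl3 with library totals alone (-0.0044) and without control replicate 3 (-0.092), Loxl4 without control replicate 1 (0.069), Tgm2 without control replicate 2 (0.011) or mutant replicate 2 (0.12), and Serpinh1 without control replicate 1 (0.12) or mutant replicate 2 (0.036). Leaving out 1 library moved Loxl3 over -0.092 to 0.38, Loxl4 over -0.52 to 0.069, Tgm2 over -0.20 to 0.12, Serpinh1 over -0.17 to 0.12, Plod1 over 0.24 to 0.56, Plod2 over 0.17 to 0.44, Plod3 over 0.016 to 0.28, Gpr126 over 0.090 to 0.30, the ratio of Serpinh1 to collagen over -0.59 to -0.34, that of Lox to collagen over -0.68 to 0.054 and that of Plod2 to Plod1 over -0.41 to 0.16. Library totals alone moved the median of all genes to -0.13 and that of the 10 genes to 0.10. Leaving out 1 library gave 1 to 3 members and 7 to 14 pathway genes at an unadjusted p under 0.05. For all genes it gave 618 (without control replicate 3) to 2427 (without control replicate 1) in place of 1164, and 0 to 31 (without control replicate 1) in place of 1 at an adjusted p under 0.05. Without the filter these were 2276 and 245, with 1 member at an adjusted p under 0.05. At that threshold DESeq2 gave 58 genes, limma-voom 0 and the replicate block 0. The ratios of Lox to collagen and of Plod2 to Plod1 changed sign without mutant replicate 3. The cause of these shifts was not tested. Deviations from the group means had correlations of 0.102, -0.21 and 0.0854 between same-numbered libraries. Those between libraries with different numbers ranged from -0.253 to 0.179. With 3 libraries per group these values cannot decide whether the numbers pair libraries. With the number as a replicate block, 3 members and 10 pathway genes had an unadjusted p under 0.05, and 1002 of all genes.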
